A study of Mus musculus with 11 samples.

Results

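The neural lineage markers described here are 6 genes, Pax6, Sox1, Sox3, Sox11, Nes and Camk2a, taken by symbol from the 54723 Ensembl genes with a symbol that were counted in every library. They were chosen from the measured results of these siRNA comparisons, by a rule that names the genes and states no threshold. Their levels and changes in the 3 comparisons are therefore a description, with no test. The RNA came from mouse embryonic stem cells of the E14 line, kept in LIF and knockout serum replacement on gelatin. Cells were transfected and collected after 36 h: 3 libraries are labelled control scramble siRNA, 4 CMTR1 siRNA 1 and 4 CMTR1 siRNA 2. Total RNA was depleted of ribosomal RNA and sequenced as strand-specific libraries, and the authors deposited the reads counted for each gene. The libraries hold 7429926 to 8107684 counted reads with the control siRNA, 6738478 to 8023829 with siRNA 1 and 7039741 to 8382318 with siRNA 2.

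Levels are given as CPM, the reads of a gene per 1000000 counted reads of its library. The 16073 genes with more than 1 CPM in at least 4 libraries were compared between groups, and all 6 markers were among them. Each CMTR1 siRNA against the control siRNA asks what differs when an siRNA to Cmtr1 is given, and siRNA 2 against siRNA 1 asks where siRNAs to the same gene differ. A gene is said to be called where its adjusted p is at most 0.05. The thinnest counts were those of Camk2a, with 29 reads in its lowest library, and the deepest were those of Sox11, with up to 948. The methods state 3 biological replicates, while each CMTR1 siRNA has 4 libraries here, and the labels do not say whether each library came from its own culture, so the standard errors and adjusted p-values below measure the spread between these libraries.

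As background, the neural plate forms from the epiblast, the layer that embryonic stem cells resemble, when signals that hold the pluripotent state or turn cells to mesoderm and endoderm are withdrawn. SOX and PAX transcription factors then set up neural progenitors, which carry the filament protein nestin, and proneural factors later take some of these cells out of the cell cycle to become neurons. Stem cell cultures with LIF are mixtures, in which some cells carry genes of later states at low levels. CMTR1, the protein targeted by the siRNAs, methylates the ribose of the first transcribed nucleotide next to the RNA cap.

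RNA of the targeted gene did not separate the groups. Cmtr1 (ENSMUSG00000024019, GRCm38 chr17:29660595-29705979, plus strand) stood at 21.3, 21.7 and 17.9 CPM in the control libraries. With siRNA 1 it stood at 21.1, 21.3, 16.2 and 18.0 CPM, and with siRNA 2 at 15.6, 16.8, 16.4 and 19.5 CPM. The lowest control library lay inside the range of both CMTR1 siRNA groups, so the groups overlapped. The log2 fold change against control was −0.09 (SE 0.11) with siRNA 1 and −0.25 (SE 0.11) with siRNA 2, with adjusted p-values of 0.743 and 0.144 in edgeR's quasi-likelihood test. Of the gene's 9720 exonic bases, 3390 are shared with Gm28043 and 706 with Gm28052 on the same strand and 4584 with Ccdc167 on the other, which leaves 2355 in no other of these genes, and reads of shared exons may not all be counted to Cmtr1. Gm28043 overlapped between the groups as well, at 4.82 to 6.73 CPM with the control siRNA, 3.17 to 6.55 CPM with siRNA 1 and 4.69 to 6.74 CPM with siRNA 2. The groups are therefore named by their siRNA labels, and no difference below is tied to a measured loss of Cmtr1 RNA. The paper describes CMTR1 as falling rapidly once its siRNA is transfected, without saying there whether RNA or protein is meant. It lists western blots, which measure protein, among the uses of both CMTR1 siRNAs, and no protein was measured here. Whether the labels of these libraries are right was not tested.

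The label of embryonic stem cells was checked against 10 markers of that state. All 10 passed the filter, and their summed level was 1664, 1773 and 1705 CPM in the control libraries. With siRNA 1 the sum was 1315, 1388, 1548 and 1473 CPM, and with siRNA 2 it was 1465, 1463, 1469 and 1553 CPM. Every library thus carried the stem cell markers at high level, and every library of both CMTR1 siRNAs lay below every control library. On the scale of CPM per kilobase of exon, the control mean of Pou5f1 lay above 99.3% of the genes tested, that of Sox2 above 97.7% and that of Nanog above 92.3%. In bulk RNA, fewer cells in a state and less RNA of its genes in each cell cannot be told apart.

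Promoter sequences were found by symbol for 4 of the 6 markers in a RefSeq table for GRCm38.p6, as 5 windows of 300 bases that run from 250 before a RefSeq start to 50 after it. These starts are not all the ends of the genes in GENCODE: the window of Sox11 lies wholly before the gene as annotated there, that of Pax6 start 2 lies wholly inside it, and that of Sox1 lies inside it for 274 bases, Nes for 65 and Pax6 start 1 for 46. Every window found is shown, and Sox3 and Camk2a had no entry. Among the genes shown, Nes and Pax6 differed between the CMTR1 siRNAs in opposite directions. Sox1 and Sox11 were the pair that varied most alike over the libraries. The windows are chr2:105668646-105668945 for Pax6 start 1, chr2:105682213-105682512 for Pax6 start 2, chr8:12395269-12395568 for Sox1 and chr3:87970843-87971142 for Nes, all on the plus strand. The window of Sox11 is chr12:27342669-27342968 on the minus strand. Capitals mark matches to 7 short motifs, searched on both strands and chosen after the sequences were seen: the octamer ATGCAAAT, the CCAAT box CCAAT, the TATA box TATAAA, the cyclic AMP response element TGACGTCA, the SOX core ACAAAG, the GC box GGGCGG and the E-box CAGCTG.
Pax6 start 1: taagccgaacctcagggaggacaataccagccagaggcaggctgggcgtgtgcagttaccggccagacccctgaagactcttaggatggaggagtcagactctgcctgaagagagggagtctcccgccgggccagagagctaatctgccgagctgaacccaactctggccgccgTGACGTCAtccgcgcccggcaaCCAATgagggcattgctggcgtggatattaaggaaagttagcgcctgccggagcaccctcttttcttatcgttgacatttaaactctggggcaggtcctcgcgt
Pax6 start 2: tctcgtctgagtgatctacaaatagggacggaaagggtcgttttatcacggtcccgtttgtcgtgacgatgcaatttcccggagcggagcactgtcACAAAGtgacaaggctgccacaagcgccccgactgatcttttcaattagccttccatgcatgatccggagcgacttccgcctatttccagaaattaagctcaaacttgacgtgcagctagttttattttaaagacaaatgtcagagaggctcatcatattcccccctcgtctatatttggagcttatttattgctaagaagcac
Sox1: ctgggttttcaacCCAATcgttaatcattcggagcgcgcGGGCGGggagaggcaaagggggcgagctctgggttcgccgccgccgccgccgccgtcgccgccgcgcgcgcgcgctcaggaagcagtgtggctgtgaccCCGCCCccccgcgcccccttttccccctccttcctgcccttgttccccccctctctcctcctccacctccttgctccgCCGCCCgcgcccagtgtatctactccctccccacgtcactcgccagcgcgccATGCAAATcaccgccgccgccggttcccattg
Sox11: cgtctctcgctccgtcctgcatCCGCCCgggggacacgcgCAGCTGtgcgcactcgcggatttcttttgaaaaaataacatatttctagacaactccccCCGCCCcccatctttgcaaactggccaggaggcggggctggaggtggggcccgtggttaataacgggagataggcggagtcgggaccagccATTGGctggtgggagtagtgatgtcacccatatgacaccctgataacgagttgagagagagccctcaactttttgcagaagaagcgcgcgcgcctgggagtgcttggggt
Nes: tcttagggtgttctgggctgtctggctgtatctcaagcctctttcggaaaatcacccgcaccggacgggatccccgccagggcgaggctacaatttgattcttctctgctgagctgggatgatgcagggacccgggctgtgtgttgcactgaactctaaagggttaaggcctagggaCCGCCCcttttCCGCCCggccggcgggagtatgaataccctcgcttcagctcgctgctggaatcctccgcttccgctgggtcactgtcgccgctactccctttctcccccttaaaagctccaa

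The windows of Pax6 start 1, Sox11 and Nes each held 58.7% G and C, that of Sox1 held 70.7% and that of Pax6 start 2 held 46.3%, beside a median of 52.7% over the 32851 windows of the table. The CCAAT box was found in Pax6 start 1, Sox1 and Sox11, and in 37.4% of all windows. GC boxes numbered 3 in Sox1, 2 in Sox11 and 2 in Nes, and 35.7% of all windows held at least 1. The octamer, a sequence that POU factors bind, was found in Sox1 and in 1.74% of all windows. The cyclic AMP response element was found in Pax6 start 1 and in 1.79% of all windows. The SOX core was found in Pax6 start 2 (18.7% of all windows) and the E-box in Sox11 (16.3%), while the TATA box was in none of the 5 (13.6% of all windows). Each match is a description of letters in these windows.

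Pax6 (ENSMUSG00000027168, chr2:105668900-105697364) codes for a paired-box and homeodomain factor of neural progenitors in the forebrain, spinal cord and eye. It stood at 9.40, 12.3 and 9.42 CPM in the control libraries, at 12.9, 16.3, 12.4 and 12.4 CPM with siRNA 1 and at 9.23, 8.11, 7.41 and 9.01 CPM with siRNA 2. All libraries of siRNA 1 lay above the highest control library, and all of siRNA 2 lay below the lowest, by narrow margins on both sides. The log2 fold change was 0.38 (SE 0.13, 95% interval 0.12 to 0.64) with siRNA 1 and −0.30 (SE 0.14, interval −0.58 to −0.02) with siRNA 2. The second of these depended on control replicate 2, the highest control library, without which it was −0.16 and the first was 0.53. Without siRNA 1 replicate 2, the highest library of its group, the first was 0.27. Between the CMTR1 siRNAs, Pax6 was lower with siRNA 2, by a log2 value of −0.68 (SE 0.13, interval −0.93 to −0.43), which came from 55 to 73 reads per library against 87 to 131.

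Sox1 (ENSMUSG00000096014, chr8:12395295-12400126) codes for a SOXB1 factor that is among the earliest specific marks of the neural plate. Its levels were 33.8, 31.6 and 30.8 CPM in the control libraries, 44.4, 40.4, 35.3 and 33.4 CPM with siRNA 1, and 37.8, 36.7, 31.0 and 25.6 CPM with siRNA 2. With siRNA 1, 3 libraries lay above all controls and the lowest lay just inside the control range, while siRNA 2 spread to both sides of it. The log2 fold change was 0.25 (SE 0.10, interval 0.07 to 0.44) with siRNA 1 and 0.03 (SE 0.10, interval −0.16 to 0.22) with siRNA 2. The latter was −0.04 without siRNA 2 replicate 1 and 0.13 without siRNA 2 replicate 4. Between the CMTR1 siRNAs it was −0.23 (SE 0.09), or −0.12 without siRNA 2 replicate 4, its lowest library.

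Sox3 (ENSMUSG00000045179, chrX:60891366-60893430) codes for another SOXB1 factor, present in the epiblast before the neural plate and kept in neural progenitors. It was counted at 21.8, 22.9 and 21.8 CPM in the control libraries, 28.5, 26.8, 23.4 and 22.7 CPM with siRNA 1, and 20.3, 25.4, 20.1 and 22.1 CPM with siRNA 2. The 3 control libraries were close together, with a coefficient of variation of 2.92%, and the ranges of both CMTR1 siRNA groups overlapped with theirs. The log2 fold change was 0.19 (SE 0.10, interval 0.00 to 0.38) with siRNA 1, −0.01 (SE 0.10) with siRNA 2 and −0.20 (SE 0.09) between the CMTR1 siRNAs. With siRNA 2 the sign was not fixed: the value was 0.03 without siRNA 2 replicate 3 and 0.02 with replicate number as a block.

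Sox11 (ENSMUSG00000063632, chr12:27334264-27342574) codes for a SOXC factor of progenitors that leave the cell cycle and of young neurons. It stood at 97.9, 90.2 and 94.6 CPM in the control libraries, 115, 118, 106 and 98.9 CPM with siRNA 1, and 110.1, 107, 99.4 and 95.1 CPM with siRNA 2. All libraries of siRNA 1 lay above all controls, the lowest by a narrow margin, and 3 of 4 libraries of siRNA 2 did. On the log2 scale Sox11 differed by 0.22 (SE 0.06, interval 0.10 to 0.34) with siRNA 1, 0.13 (SE 0.06, interval 0.01 to 0.25) with siRNA 2 and −0.09 (SE 0.06) between the CMTR1 siRNAs. The last of these was −0.05 without siRNA 1 replicate 2 and −0.14 without siRNA 1 replicate 4.

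Nes (ENSMUSG00000004891, chr3:87971078-87980451) codes for nestin, an intermediate filament protein of neural progenitors that is also present in epiblast-like cells. Its control libraries held 64.5, 57.1 and 63.1 CPM, those of siRNA 1 held 78.9, 76.3, 70.0 and 69.2 CPM, and those of siRNA 2 held 83.8, 92.3, 76.7 and 82.5 CPM. All 8 libraries of the CMTR1 siRNAs lay above all controls, and siRNA 1 and siRNA 2 overlapped with each other. The log2 fold change was 0.26 (SE 0.07, interval 0.13 to 0.39) with siRNA 1 and 0.45 (SE 0.07, interval 0.32 to 0.58) with siRNA 2. Between the CMTR1 siRNAs, Nes was higher with siRNA 2 by 0.19 (SE 0.06). When any single library was left out, the value for siRNA 2 against control ran from 0.40 to 0.49.

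Camk2a (ENSMUSG00000024617, chr18:60925618-60988152) codes for the alpha subunit of a calcium and calmodulin-dependent kinase, abundant in mature excitatory neurons. It was near the lower limit of measurement, at 4.06, 3.58 and 4.31 CPM in the control libraries, 4.30, 4.24, 4.23 and 5.88 CPM with siRNA 1, and 4.97, 5.49, 3.91 and 5.19 CPM with siRNA 2. The groups overlapped, and 1 library of siRNA 1 stood apart from the other 3. Against control it differed by a log2 value of 0.23 (SE 0.20, interval −0.16 to 0.62) with siRNA 1 and 0.30 (SE 0.19, interval −0.07 to 0.68) with siRNA 2. The first of these was 0.10 without siRNA 1 replicate 4, the high library. Between the CMTR1 siRNAs Camk2a differed by 0.07 (SE 0.17), or 0.01 without siRNA 2 replicate 2 and 0.21 without siRNA 1 replicate 4. The spread within the groups, a coefficient of variation of 9.33, 17.4 and 14.0% for control, siRNA 1 and siRNA 2, stood beside 18.0, 17.0 and 16.2% expected of counting alone, well under it in the control group and near it in the other 2.

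**Figure D1:**
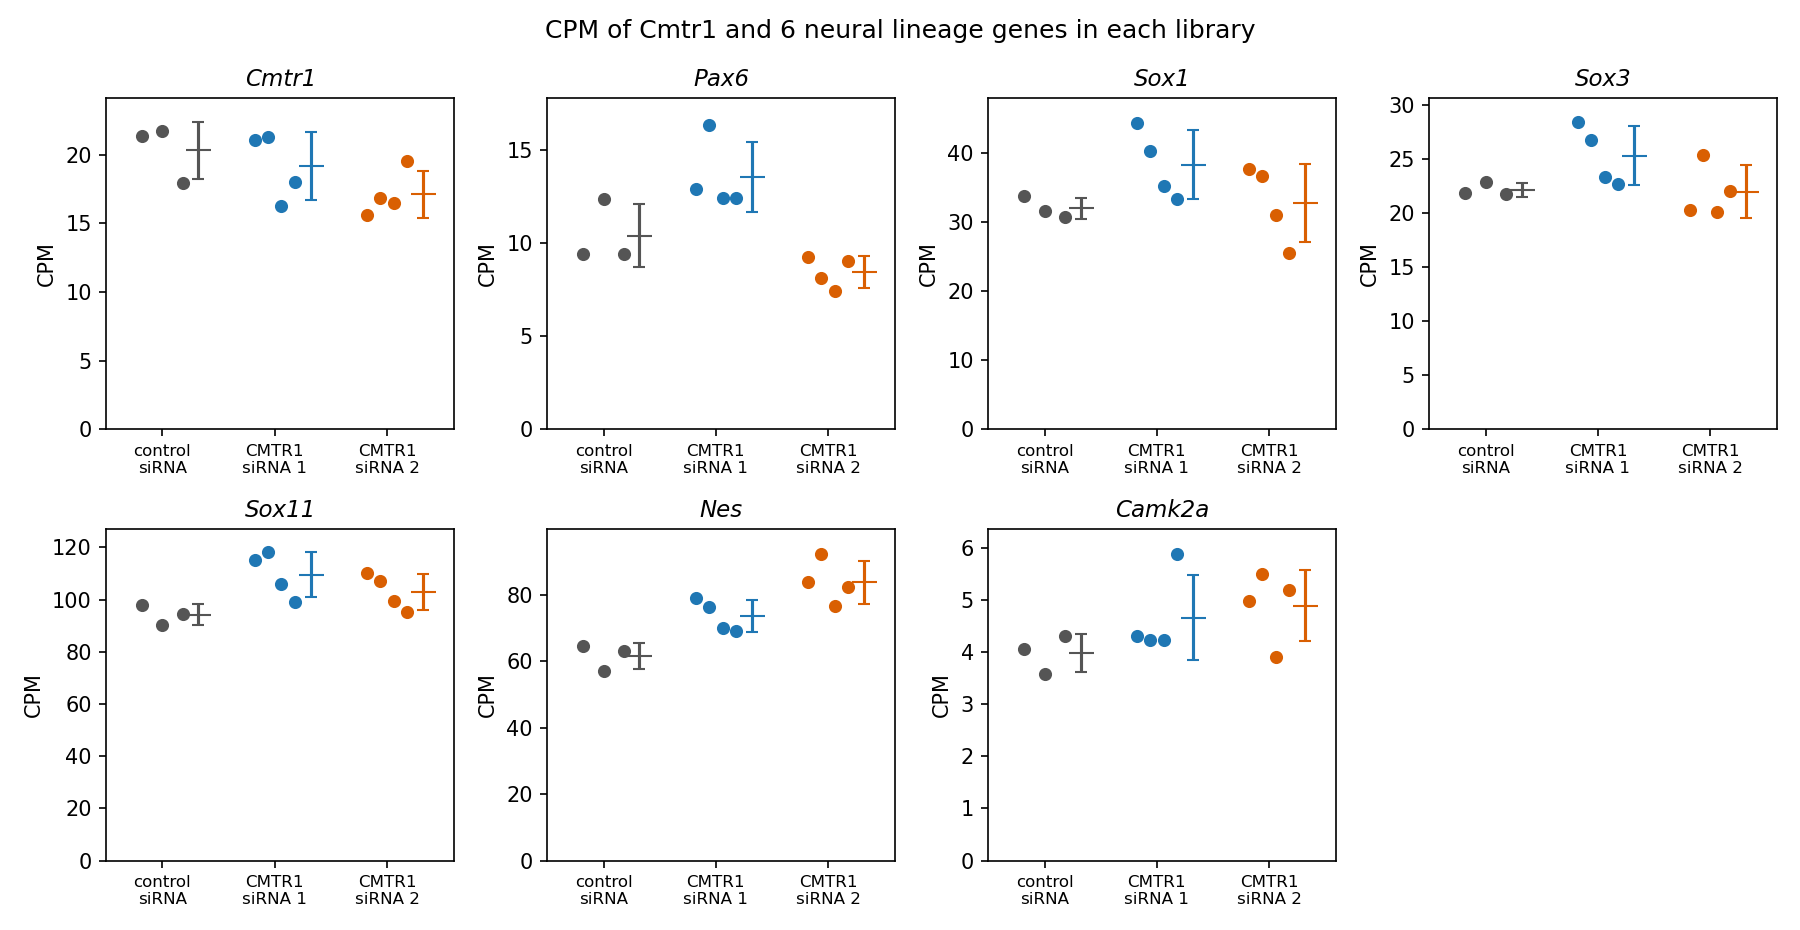
CPM of Cmtr1 and of the 6 neural markers, 1 point a library, with the mean and SD of each group beside the points. Pax6 lies above the controls with siRNA 1 and below them with siRNA 2, Nes lies above them with both, and Cmtr1 overlaps in all groups.

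Levels of different genes were compared per length, as CPM per kilobase of exon. The length counts every base in an exon of any annotated transcript. That is 11694 bases over 26 transcripts for Pax6 and 7465 over 7 for Camk2a, while each of the 3 SOX genes has 1 transcript. Where shorter transcripts are the ones made, this scale understates the level. In the control libraries the order of the means was Sox11 (11.3), Sox3 (10.7), Nes (9.60), Sox1 (6.63), Pax6 (0.888) and Camk2a (0.533), and only the neighbours Sox11 and Sox3 overlapped. With siRNA 1 the order was the same, with overlap among Sox11, Sox3 and Nes, each with both others. With siRNA 2 the order was Nes (13.1), Sox11 (12.4), Sox3 (10.6), Sox1 (6.78), Pax6 (0.722) and Camk2a (0.655), with overlap among Nes, Sox11 and Sox3, each with both others, and of Pax6 with Camk2a. On this scale the 3 SOX genes and Nes were well within the range of expressed genes, while Pax6 and Camk2a stood near its lower end. Control means lay above 71.3% of the genes tested for Sox11, 70.0% for Sox3, 67.1% for Nes and 58.3% for Sox1, but above 17.5% for Pax6 and 10.2% for Camk2a.

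**Figure D2:**
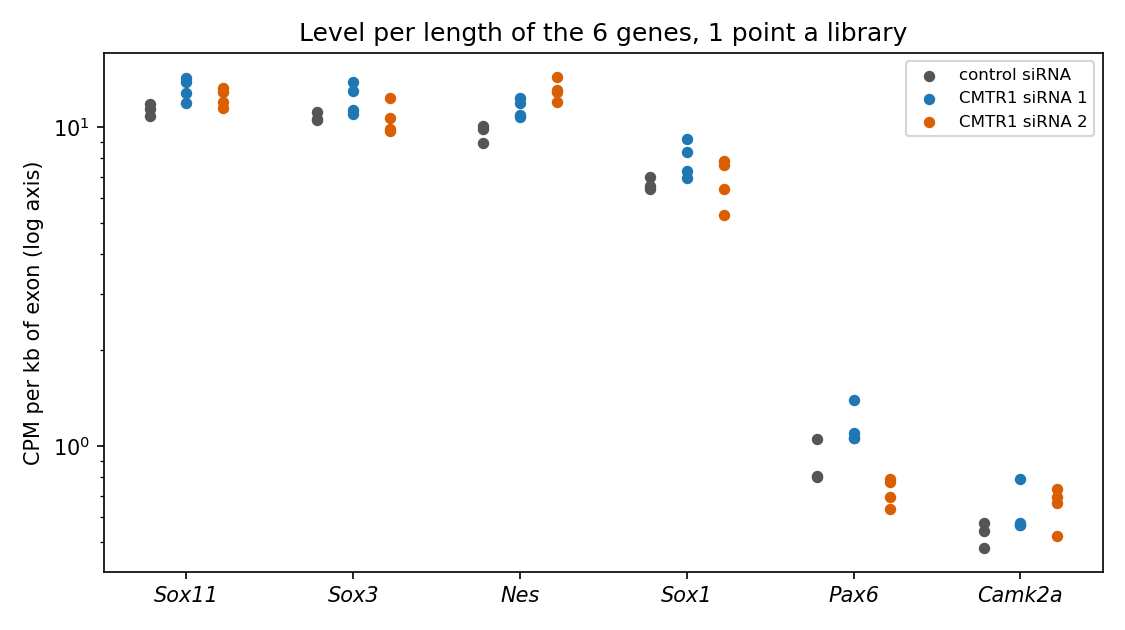
CPM per kilobase of exon of the 6 markers on a log axis, 1 point a library, coloured by siRNA group. Sox11, Sox3, Nes and Sox1 form an upper band, and Pax6 and Camk2a lie near or under 1.

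Counted over the 6 markers, the log2 fold change was above 0 for 6 of 6 with siRNA 1, for 4 of 6 with siRNA 2 and for 2 of 6 between siRNA 2 and siRNA 1, where the exceptions were Nes and Camk2a. Of all genes tested, 56.8, 57.1 and 50.5% were above 0 in these comparisons. The medians were 0.24, 0.08 and −0.14, beside 0.02, 0.03 and 0.00 over all genes tested. The 2 comparisons with control share their control libraries. Libraries of the compared groups did not overlap for 3 of 6 markers with siRNA 1 (15.5% of all genes), for 2 of 6 with siRNA 2 (19.4%) and for 1 of 6 between the CMTR1 siRNAs (11.8%). Nothing is read from these counts, since the same comparisons were in view when the markers were chosen.

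**Figure D3:**
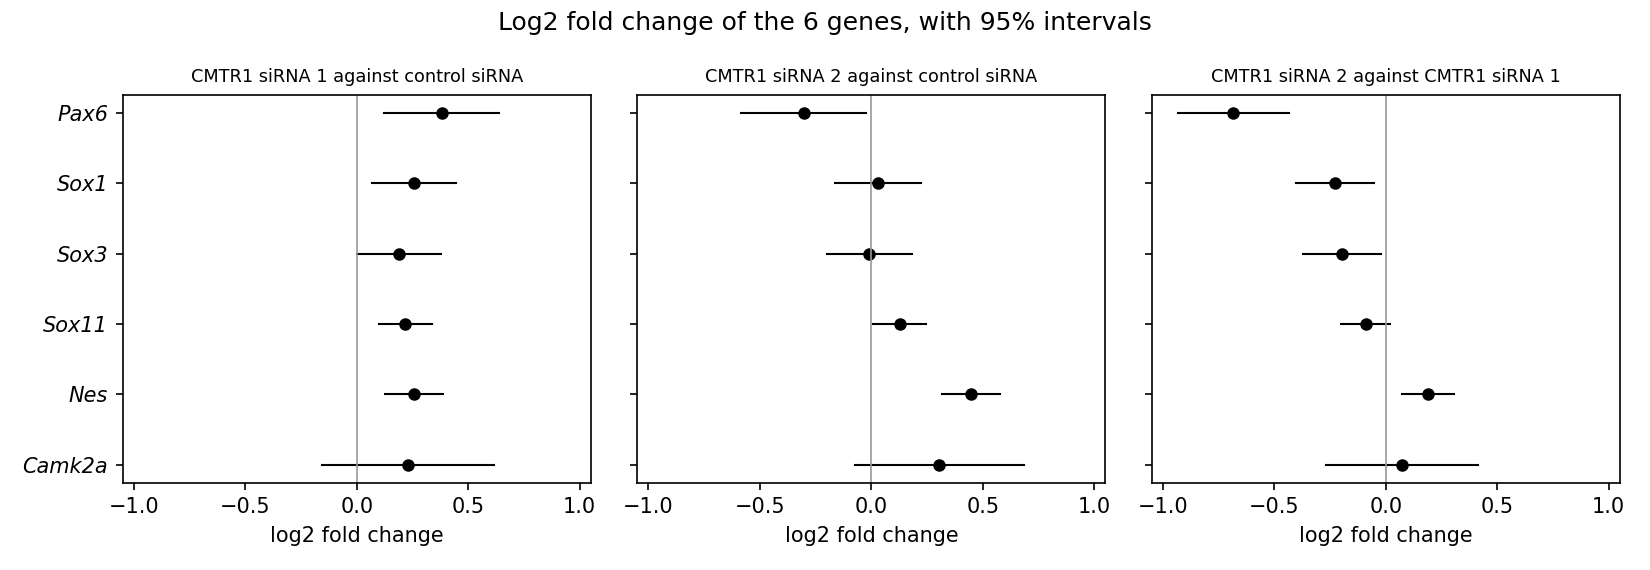
Log2 fold changes of the 6 markers in the 3 comparisons, as points with 95% intervals. Pax6 changes side between the first panel and the second, and Nes is to the right of 0 in all 3.

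Over the 11 libraries, the log2 CPM of the markers varied together to unequal degrees, given as Pearson's r without a test because the libraries share 3 siRNA groups. The highest r was 0.85 between Sox1 and Sox11, and the next were 0.66 between Sox1 and Sox3 and 0.64 between Pax6 and Sox3. Pax6 and Nes had the lowest, −0.31. Camk2a varied most like Nes, with an r of 0.59. The genes most like each marker, among the 11084 with a mean log2 CPM of at least 2, were Pou6f1 for Nes (r 0.99), Serpinh1 for Sox11 (0.97), Ephb4 for Sox3 (0.94), Anapc15 for Pax6 (0.92), Nova2 for Sox1 (0.92) and Hvcn1 for Camk2a (0.87). After these came Fbxw4 and Tnfrsf22 for Nes, Slc39a14 and Pcdh1 for Sox11, Agpat1 and Prmt7 for Sox3, Otx2 and Cd24a for Pax6, Mob3b and Uqcr11 for Sox1, and Ckap2 and Cybc1 for Camk2a. These genes were picked from the top of 11084 values over only 11 libraries, so a high r is in part given by the choice. How high r would run by chance was not tested.

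Relatives of the markers were read from a list of 11 genes, of which 9 passed the filter, and the question was whether their families moved as they did. Sox4 (ENSMUSG00000076431), the other SOXC gene most studied beside Sox11, stood at 99.9, 93.0 and 92.6 CPM in the control libraries, 119, 117, 112 and 109 CPM with siRNA 1, and 100.4, 103, 92.5 and 97.3 CPM with siRNA 2. All libraries of siRNA 1 lay above all others. Sox4 was higher with siRNA 1 in 4 of 4 libraries, by a log2 value of 0.26 (SE 0.06, adjusted p 0.00223), and lower with siRNA 2 than with siRNA 1 in 4 of 4, by −0.21 (SE 0.05, adjusted p 0.00526).

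Sox21 (ENSMUSG00000061517), a SOXB2 gene that acts opposite to SOXB1 factors in progenitors, stood at 10.5, 10.2 and 9.69 CPM in the control libraries, 14.7, 16.1, 14.7 and 12.3 CPM with siRNA 1, and 5.82, 10.1, 7.41 and 9.51 CPM with siRNA 2. The siRNA 1 libraries lay above all controls, and those of siRNA 2 lay at the control level or under it. The difference between the CMTR1 siRNAs was −0.80 (SE 0.13, adjusted p 5.15e-05), lower in 4 of 4 libraries. With siRNA 1 against control, Sox21 was called at 0.51 (SE 0.14), but not by DESeq2, nor without siRNA 1 replicate 2 (0.45) or control replicate 2 (0.51) or 3 (0.48). With siRNA 2, the call among the relatives was Ina, given with the neuronal genes below. The other relatives that passed the filter, Sox2, Sox12, Vim, Camk2b, Camk2d and Camk2g, were not called in any comparison, apart from Sox12 with siRNA 1 when only these groups were fitted (0.19), without siRNA 2 replicate 4 (0.19) or with replicate number as a block (0.24). Medians over the 9 relatives were 0.10, 0.07 and −0.07 for siRNA 1, siRNA 2 and their difference.

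Other neural genes were counted in 3 lists that hold none of the 6 markers: 55 genes of the neural plate and progenitors (38 passed the filter), 15 proneural factors (8 passed) and 42 neuronal genes (35 passed). Of the 81 that passed, 12 were called with siRNA 1, 9 higher and 3 lower, where 4.67% of all genes were called, 2.71% higher and 1.97% lower. With siRNA 2, 12 were called, all higher, where 9.72% of all genes were called, 6.17% higher and 3.55% lower. For siRNA 2 against siRNA 1, 17 were called, 8 higher and 9 lower with siRNA 2, where 7.44% of all genes were called, 4.49% higher and 2.96% lower. The medians over the 81 were 0.10, 0.07 and 0.00. These lists, like the markers, were chosen with earlier results of these data known. Their counts beside those of all genes are therefore a description. Single controls weighed on the first counts, which were 7 without control replicate 2 for siRNA 1 and 7 without control replicate 3 for siRNA 2.

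The balance of directions over all genes depended on the scaling. With library totals, 435 genes were called higher and 316 lower with siRNA 1, and 991 higher and 571 lower with siRNA 2. With TMM factors the split was 346 and 400 for siRNA 1, and 728 and 734 for siRNA 2. With DESeq2 it was 199 and 322, and 409 and 549. Among the neural genes, where library totals gave 9 higher and 3 lower with siRNA 1 and 12 higher and 0 lower with siRNA 2, TMM factors gave 8 higher and 4 lower with siRNA 1 and 11 higher and 1 lower with siRNA 2, and DESeq2 gave 6 higher and 2 lower, and 7 higher and 0 lower. For siRNA 2 against siRNA 1, library totals gave 721 higher and 475 lower, TMM factors 692 and 523, and DESeq2 419 and 321, and among the neural genes the split was 8 and 9, then 8 and 10, then 4 and 6. The totals also moved with single libraries: from 751 with siRNA 1 to 424, 355 and 447 without siRNA 1 replicate 2, control replicate 2 and control replicate 3, and from 1562 with siRNA 2 to 1015, 914 and 807 without siRNA 2 replicate 1, control replicate 2 and control replicate 3. For siRNA 2 against siRNA 1, 1196 became 738, 724 and 757 without siRNA 1 replicate 1, siRNA 1 replicate 2 and siRNA 2 replicate 1.

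The 3 lists differed from each other in their counts. Genes of the neural plate and progenitors had a median of 0.22 with siRNA 1, 8 called higher and 1 lower, and a median of 0.04 with siRNA 2, 5 called higher, of which DESeq2 called 2 and the fit without control replicate 3 called 1. Between the CMTR1 siRNAs, 9 of these 38 were called lower with siRNA 2 and 1 higher, with a median of −0.15. Proneural factors had medians of −0.20, 0.07 and 0.32, opposite in sign to those of progenitor genes with siRNA 1 and between the CMTR1 siRNAs but not with siRNA 2, and 3 of 8 were called higher with siRNA 2 than with siRNA 1. With siRNA 2 against control no proneural factor was called by edgeR or DESeq2. Of the 8, 2 had an unadjusted p under 0.05, as did 3733 of all 16073 genes tested. Without siRNA 2 replicate 3, 1 proneural factor was called. Neuronal genes had medians of 0.08, 0.13 and 0.10, with 7 of 35 called higher with siRNA 2 and 4 higher with siRNA 2 than with siRNA 1, of which DESeq2 called 2. The 9 progenitor genes became 5 without siRNA 1 replicate 1 or without siRNA 1 replicate 2, and the 3 proneural genes became 1 without siRNA 1 replicate 4, siRNA 2 replicate 1 or siRNA 2 replicate 2, and 1 with DESeq2. The progenitor gene that was lower with siRNA 1 and higher with siRNA 2 than with siRNA 1 was Hes6, and the 5 higher with siRNA 2 were Pou3f1, Prom1, Cdh2, Dll1 and Sall3, of which Hes6 and Sall3 are named after their values were seen. The difference between the lists was not tested.

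**Figure D4:**
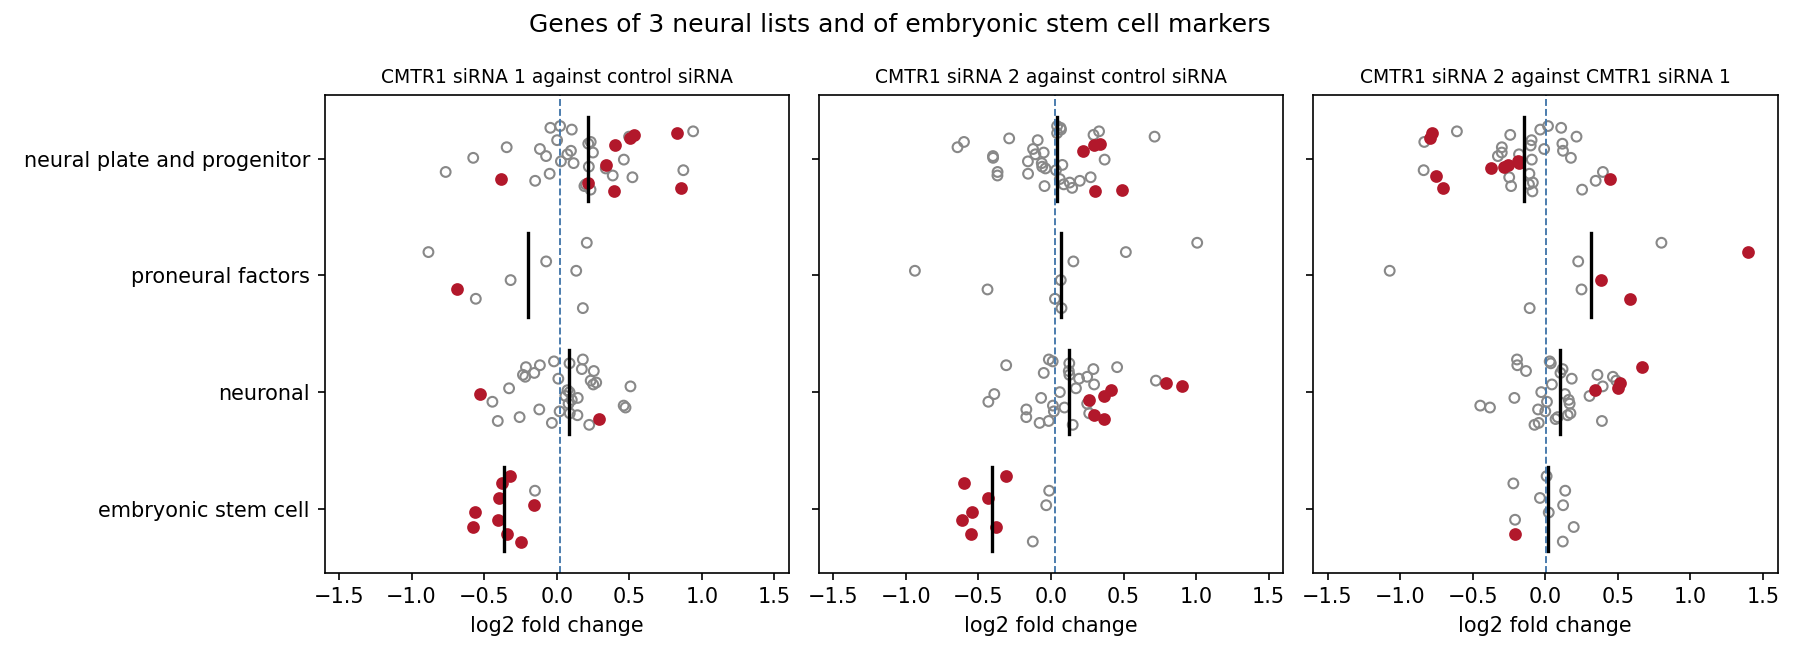
Log2 fold changes of the genes that passed the filter in the 3 neural lists and among stem cell markers, 1 point a gene, filled where called at an adjusted p of 0.05. Black bars are medians of the lists and dashed lines medians of all genes; the stem cell markers lie left of 0 in both comparisons with control.

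Among progenitor genes, Zfp521 (ENSMUSG00000024420), a zinc finger factor that promotes the neural fate in differentiating stem cells, stood at 5.08, 5.06 and 5.52 CPM in the control libraries, 8.90, 10.6, 8.98 and 8.42 CPM with siRNA 1, and 5.54, 5.37, 5.26 and 5.31 CPM with siRNA 2. All libraries of siRNA 1 lay above all others, and siRNA 2 lay within or just above the control range. Zfp521 was higher with siRNA 1 in 4 of 4 libraries, by 0.83 (SE 0.15, adjusted p 0.000431), and lower with siRNA 2 than with siRNA 1 by −0.78 (SE 0.14, adjusted p 0.000187). En1 (ENSMUSG00000058665), a homeobox gene of the midbrain and hindbrain, had the same order on few reads, at 3.68, 3.21 and 3.63 CPM, then 6.53, 6.61, 6.21 and 6.01 CPM with siRNA 1, and 3.27, 4.53, 4.18 and 3.46 CPM with siRNA 2. The libraries of siRNA 1 again lay above all others. En1 differed by 0.85 (SE 0.18, adjusted p 0.0026) with siRNA 1 and by −0.71 (SE 0.17, adjusted p 0.00462) between the CMTR1 siRNAs, in 4 of 4 libraries both times.

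Cdh2 (ENSMUSG00000024304), the cadherin that neural cells take up, was higher with both. It stood at 37.1, 38.5 and 34.3 CPM in the control libraries, 50.2, 49.98, 44.9 and 47.7 CPM with siRNA 1, and 42.8, 42.6, 49.9 and 46.1 CPM with siRNA 2. All 8 libraries of the CMTR1 siRNAs lay above all controls. On the log2 scale Cdh2 differed by 0.39 (SE 0.07, adjusted p 0.000462) with siRNA 1 and 0.30 (SE 0.07, adjusted p 0.00483) with siRNA 2, where the call was lost without control replicate 3 (0.26). The zinc finger gene Zeb2 (0.53), the progenitor membrane protein gene Prom1 (0.40) and the RNA-binding protein gene Msi1 (0.34) were also called higher with siRNA 1, and above the control mean in 4 of 4 libraries each. Those 3 calls held in every alternative run. With siRNA 2 Zeb2 was above the control mean in 4 of 4 libraries but not called, at 0.29 (SE 0.10), though it was in 9 alternatives: exactTest (0.29), no filter on low counts (0.29), only these groups fitted (0.29), replicate number as a block (0.37), and without siRNA 2 replicate 4 (0.34), control replicate 1 (0.44) or siRNA 1 replicate 1, 2 or 4 (0.29 each). With siRNA 2, Dll1, a Notch ligand, was called higher at 0.49 and Prom1 at 0.30, though neither was by DESeq2, and Prom1 was not without siRNA 2 replicate 2 (0.25) or control replicate 3 (0.28). Msi1 was lower with siRNA 2 than with siRNA 1, by −0.26, but was not called without siRNA 1 replicate 1 (−0.23) or siRNA 2 replicate 4 (−0.23). Gbx2, the most abundant of the list per length, was not called in any comparison, though with siRNA 1 it was without siRNA 1 replicate 4 (0.27), with replicate number as a block (0.25) and with no filter on low counts (0.20).

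Among proneural factors, Neurod4 (ENSMUSG00000048015), which acts in the step from progenitor to neuron, differed between the CMTR1 siRNAs. It stood at 1.90, 1.23 and 1.75 CPM in the control libraries, 1.04, 0.872, 0.792 and 0.802 CPM with siRNA 1, and 2.84, 1.91, 1.75 and 2.84 CPM with siRNA 2. All libraries of siRNA 1 lay below all others, on few reads. Neurod4 was higher with siRNA 2 than with siRNA 1 in 4 of 4 libraries, by 1.40 (SE 0.30, adjusted p 0.00199), and was not called against control with either. Insm1, a zinc finger gene and the most abundant of the list per length, was higher with siRNA 2 than with siRNA 1 by 0.39 (SE 0.10), but not called without siRNA 1 replicate 4 (0.30) or siRNA 2 replicate 1 (0.30) or 2 (0.31). Ebf2, at 0.58 in the same comparison, and Ebf3, at −0.69 with siRNA 1, each lost their call in 8 of the alternatives run. These included leaving out any library of siRNA 1, or siRNA 2 replicate 1 or 2, for Ebf2, with values from 0.53 to 0.62, and leaving out any control library, or siRNA 1 replicate 1, 3 or 4, for Ebf3, with values from −0.71 to −0.63.

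Among neuronal genes, Nefm (ENSMUSG00000022054), the medium neurofilament chain, stood at 6.73, 5.30 and 5.65 CPM in the control libraries, 8.31, 7.48, 7.66 and 10.2 CPM with siRNA 1, and 9.23, 12.8, 11.5 and 10.5 CPM with siRNA 2. All 8 libraries of the CMTR1 siRNAs lay above all controls, and siRNA 2 was called, at 0.90 (SE 0.15, adjusted p 6.47e-05), in 4 of 4 libraries. With siRNA 1 Nefm was called by exactTest alone (0.51). Nefh (ENSMUSG00000020396), the heavy chain, stood at 30.3, 29.2 and 31.9 CPM, then 32.3, 30.9, 34.7 and 30.3 CPM with siRNA 1, and 41.8, 45.3, 37.7 and 37.5 CPM with siRNA 2. Here the libraries of siRNA 2 lay above all others. Nefh was higher with siRNA 2 by 0.42 (SE 0.08, adjusted p 0.000363) against control and by 0.34 (SE 0.07, adjusted p 0.0018) against siRNA 1. Nefl, the light chain, was higher with siRNA 2 than with siRNA 1 in 4 of 4 libraries, by 0.50 (SE 0.10, adjusted p 0.000649). Against control Nefl was lower with siRNA 1, by −0.33 (SE 0.11), with all 4 libraries below all controls, and was called only under TMM factors (−0.35). Nefl (chr14:68083863-68089095, plus strand) lies within the bounds of Nefm (chr14:68082590-68124846, minus strand). Whether their exons overlap was not checked, and the strand setting of counting is not stated.

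Ina, a neuronal filament protein and the most abundant of the list per length, was called higher with siRNA 2 in 4 of 4 libraries, by 0.27 (SE 0.06, adjusted p 0.00232). Crmp1 (ENSMUSG00000029121), which acts in growth cones, stood at 119.7, 121 and 121 CPM in the control libraries, 155, 151, 143 and 142 CPM with siRNA 1, and 156, 165, 148 and 151 CPM with siRNA 2. The 3 controls were nearly equal, and all 8 libraries of the CMTR1 siRNAs lay above them. Crmp1 was higher by 0.29 (SE 0.05, adjusted p 0.000239) with siRNA 1 and by 0.36 (SE 0.05, adjusted p 3.34e-06) with siRNA 2. Mapt, which codes for the axonal protein tau, was called lower with siRNA 1, at −0.53, but not without siRNA 1 replicate 1 (−0.47) or 4 (−0.44) or control replicate 2 (−0.46). With siRNA 2 Mapt was lower by −0.39 (SE 0.14), with all 4 libraries below all controls, and was called only without siRNA 2 replicate 3 (−0.47). Syp, a gene of synaptic vesicles, was called higher with siRNA 2 than with siRNA 1, at 0.67, but not by DESeq2, nor without siRNA 1 replicate 2 (0.58) or 3 (0.59) or siRNA 2 replicate 4 (0.56).

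**Figure D5:**
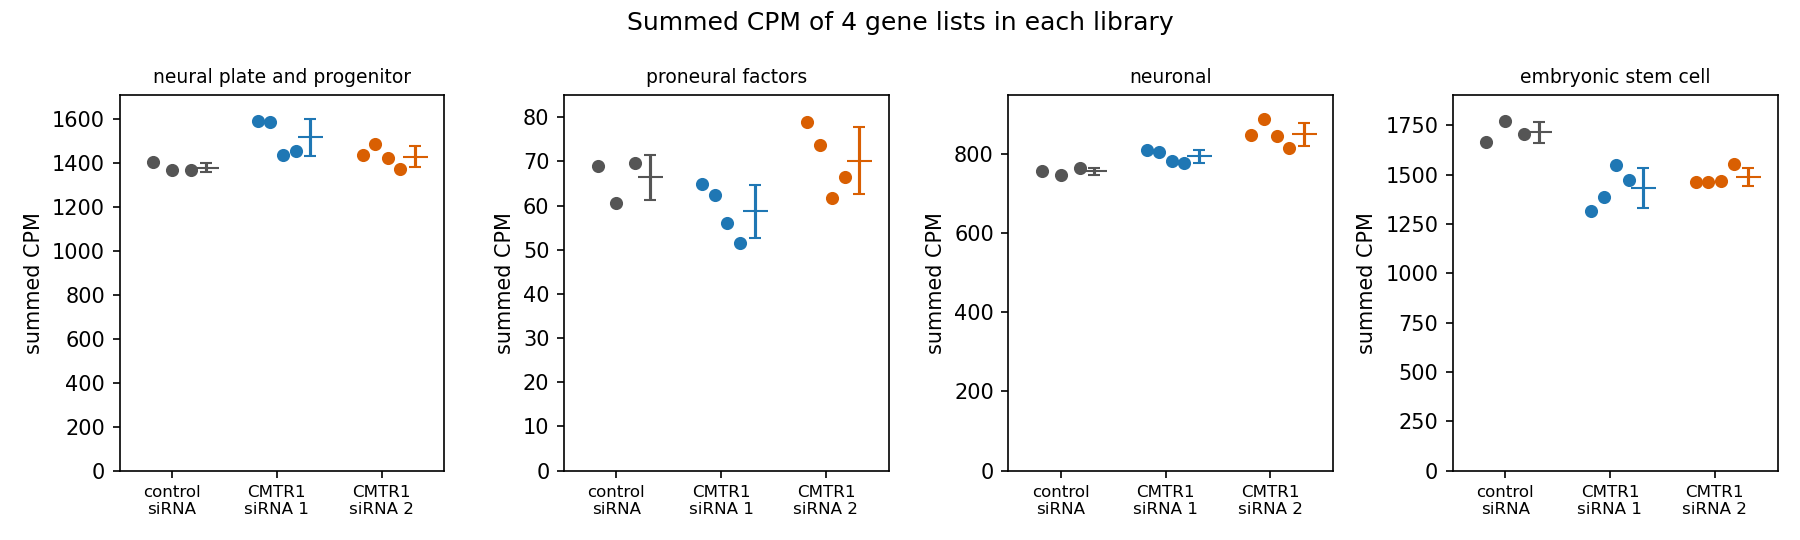
Summed CPM of the 3 neural lists and of 10 stem cell markers, 1 point a library, with mean and SD of each group. The neuronal sum, to which Crmp1 and Ina add most of the rise, lies above the controls in all 8 libraries of the CMTR1 siRNAs and that of stem cell markers lies below them, while proneural factors overlap.

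Summed over each list, neural plate and progenitor genes held 1367 to 1403 CPM in the control libraries, 1435 to 1592 CPM with siRNA 1 and 1373 to 1487 CPM with siRNA 2. With siRNA 1 these sums were 1592 and 1587 CPM in replicates 1 and 2, and 1435 and 1454 CPM in replicates 3 and 4. Stem cell markers ran the other way in the same libraries, at 1315 and 1388 CPM, then 1548 and 1473 CPM. Neuronal genes held 749 to 766, 778 to 811 and 817 to 889 CPM, so that the 3 groups did not overlap. Crmp1 and Ina added 27.2 and 7.56 CPM of the mean rise of 37.2 CPM with siRNA 1, and 34.5 and 20.7 of 92.8 CPM with siRNA 2. Without these 2 genes the sum was 529 to 539, 532 to 543 and 553 to 588 CPM, so that siRNA 1 overlapped with control. A smaller set of 8 neuron markers, Camk2a among them, held 161 to 174, 149 to 167 and 168 to 183 CPM, with overlap of both CMTR1 siRNA groups with control and a lower range with siRNA 1. Proneural factors held 60.6 to 69.6, 51.5 to 64.9 and 61.6 to 78.8 CPM, with overlap of both CMTR1 siRNA groups with control. Neurod6, a factor of late cortical neurons, had no read in any library.

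Stem cell markers were lower with both CMTR1 siRNAs. With siRNA 1, 9 of 10 were called lower and with siRNA 2 7 of 10, with medians of −0.36 and −0.41, and their part in the neural result was not tested. Esrrb was lower by −0.34 and −0.55, Klf4 by −0.40 and −0.61, Klf2 by −0.58 and −0.38, Nanog by −0.56 and −0.54 and Zfp42 by −0.32 and −0.31, for siRNA 1 and siRNA 2, in 4 of 4 libraries each time. Their adjusted p-values ran from 6.84e-08 for Esrrb with siRNA 2 to 0.00154 for Zfp42 with siRNA 1. All of these calls held in every alternative run. Tbx3 and Tfcp2l1 were called lower with both, but with siRNA 1 Tbx3 was not without control replicate 2 (−0.31), and Tfcp2l1 was not by DESeq2, nor without siRNA 1 replicate 1 (−0.28) or 2 (−0.33) or control replicate 2 (−0.32) or 3 (−0.32). Dppa5a, the most abundant per length, was called lower with siRNA 1 (−0.25), and with siRNA 2 only without siRNA 2 replicate 4 (−0.18) or with replicate number as a block (−0.16). Of the 10, 1 was called between the CMTR1 siRNAs, Esrrb at −0.21, which was lost with DESeq2 and without siRNA 1 replicate 2 (−0.22), 3 (−0.16) or 4 (−0.21) or siRNA 2 replicate 1 (−0.18) or 2 (−0.17). The count rose to 3 without siRNA 2 replicate 3, and 7 of 10 had an unadjusted p under 0.05, as did 3395 of all 16073 genes tested.

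Sox3 and Nes also belong to a list of 9 formative and primed genes, all of which passed the filter, and the other 7 had medians of 0.03, 0.04 and −0.07. Of these 7, 1 was called higher with siRNA 1, and 2 higher and 1 lower with siRNA 2, a count of 3 that was 2 with DESeq2 and 1 without siRNA 2 replicate 1, control replicate 2 or control replicate 3. Between the CMTR1 siRNAs none was called by edgeR or DESeq2, but 2 were without siRNA 2 replicate 3. An unadjusted p under 0.05 was found for 5 of the 7, and for 3395 of all 16073 genes tested. The WNT effector Lef1 was called higher with siRNA 1 (0.44) and siRNA 2 (0.37), each above the control mean in 4 of 4 libraries. Pou3f1, a POU factor of the late epiblast and neural plate, was called higher with siRNA 2 at 0.22, but not by DESeq2, nor without siRNA 2 replicate 1 (0.20) or 2 (0.17) or control replicate 2 (0.18) or 3 (0.22). Dnmt3b, the most abundant, was called lower with siRNA 2 at −0.13, a call that 9 of 14 alternatives did not keep, among them each library of these groups left out except siRNA 2 replicate 2, with values from −0.14 to −0.11, and that was also lost without siRNA 1 replicate 2 (−0.13) or 4 (−0.13).

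Genes of other lineages were read from shorter lists. Of 10 endoderm genes 7 passed the filter, of 10 mesoderm genes 6 and of 8 glial genes 3, and none of these was called in any comparison by edgeR or DESeq2. At an unadjusted p under 0.05, edgeR gave 0, 1 and 2 endoderm genes, 1, 1 and 1 mesoderm genes and 0, 0 and 0 glial genes for siRNA 1, siRNA 2 and their difference. Of all 16073 genes tested, it gave 2698, 3733 and 3395. The medians in the same order were −0.02, −0.20 and −0.08 for endoderm genes, 0.12, −0.16 and −0.30 for mesoderm genes and 0.09, −0.21 and −0.18 for glial genes. Endoderm genes summed to 75.7, 57.97 and 58.4 CPM in the control libraries, 72.9, 70.8, 53.1 and 54.3 CPM with siRNA 1 and 62.6, 62.2, 60.7 and 52.7 CPM with siRNA 2 with Dab2 the most abundant per length. Mesoderm genes summed to 16.9, 16.9 and 16.3 CPM, then 18.6, 17.8, 15.8 and 16.2 CPM with siRNA 1 and 15.1, 14.1, 17.1 and 13.5 CPM with siRNA 2, with Eomes the most abundant per length. The groups overlapped in both sums. Glial genes summed to 13.7 to 19.9 CPM over the 11 libraries. No marker of these lists was at 0 in every library, but S100b, Aqp4, Afp, Mesp1 and Gsc had fewer than 10 reads in the 11 libraries together.

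Of 7 trophoblast genes 6 passed the filter, and their sum was 40.2, 44.3 and 48.2 CPM in the control libraries, 51.2, 48.2, 48.9 and 45.98 CPM with siRNA 1 and 38.8, 39.6, 36.1 and 39.5 CPM with siRNA 2. Every siRNA 2 library lay below every control library here, and the medians were 0.07, −0.12 and −0.25. Elf5 had fewer than 10 reads in the 11 libraries together. Tfap2c, the most abundant, was lower with siRNA 2 than with siRNA 1 by −0.40 (SE 0.08, adjusted p 0.000549), in 4 of 4 libraries. This was the 1 call of the list, beside none against control by edgeR or DESeq2. At an unadjusted p under 0.05, edgeR gave 1 gene with siRNA 1 and 2 with siRNA 2. Of all 16073 genes tested, it gave 2698 and 3733. Without control replicate 1, 1 was called with siRNA 2. Of 9 genes of neural crest and surface ectoderm 6 passed, with Cdh1, the cadherin of epithelia and stem cells, far the most abundant. Their medians were −0.13, 0.07 and 0.14, with 1 called lower with siRNA 1, none with siRNA 2 by edgeR or DESeq2 (1 at an unadjusted p under 0.05, and 1 called without control replicate 1), and Krt8 and Cdh1 higher and Tfap2c lower between the CMTR1 siRNAs, 3 calls that became 1 without siRNA 1 replicate 1 or 2. The sum was 594, 608 and 669 CPM in the control libraries, 556, 540.3, 555 and 553 CPM with siRNA 1 and 568, 604, 619 and 590.5 CPM with siRNA 2. Cdh1 was lower with siRNA 1 by −0.21 (SE 0.04, adjusted p 0.00224), in 4 of 4 libraries, though not called without control replicate 3 (−0.16), and Krt8 was higher with siRNA 2 than with siRNA 1 by 0.38, though not called without siRNA 1 replicate 1 (0.34) or 2 (0.35). The part of these lineages in the neural result was not tested.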

How the data were processed

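The counts analysed are those the authors deposited: whole numbers of reads per Ensembl gene for 11 libraries. The submitters' processing notes name cutadapt for trimming, STAR for alignment to GRCm38 (mm10), Picard for removal of duplicates and featureCounts for counting, without versions. Of the 11 count files, 10 close with summary lines laid out as by HTSeq-count. By these lines, 39.3 to 44.3% of the reads listed were assigned to no counted feature. Such reads may still lie inside genes, as in introns. The file of siRNA 2 replicate 4 has no summary lines. The reason is not given in the sources used here. Symbols and exon lengths are from GENCODE mouse M21. Genes with more than 1 CPM in at least 4 libraries (16073) were scaled by library totals and tested in a fit of 3 groups by edgeR's quasi-likelihood test with Benjamini-Hochberg adjusted p-values (edgeR 4.0.16, R 4.3.3); a gene was called at 0.05. The 95% intervals of the markers were built from the SE with a normal quantile. They are therefore narrower than the quasi-likelihood test would give, and whether an interval holds 0 is not read as a test. The code was tested on simulated data. Likeness used Pearson's r of log2 CPM with 0.5 CPM added.

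Alternatives were TMM factors, DESeq2 1.42.0, exactTest, 2 other filters, only the groups compared, replicate number as a block, and each library left out. Named were the 6 markers, Cmtr1, relatives that passed the filter, from each other list the most abundant gene per length and up to 8 called with the lowest adjusted p, and the 3 genes most like each marker; 2 genes so chosen are not reported here, but stay in the counts and medians of their lists. Adjusted p-values of the markers are not used. The markers and lists were chosen with earlier results of these data known. Tables and figures used Python 3.11.15, numpy 2.4.6, pandas 2.3.3 and matplotlib 3.10.9. No sample column was left unused.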

Additional observations from a re-analysis of the deposited data

Results flagged for a closer look

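Among 100 groups of 4 libraries checked, 3 held a library whose distance to the next, relative to the range of its group, passed Dixon's 95% critical value, where chance at 1 in 20 gives 5. All were in siRNA 1: the highest Pax6 library (16.3 CPM), the highest Camk2a library (5.88 CPM) and the lowest Cdh1 library (433 CPM). The cause was not tested.

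Pax6 stood on opposite sides of the control mean, above it in all libraries of siRNA 1 and below it in all of siRNA 2, with a log2 difference of −0.68, a description, since the choice of the gene used these comparisons. Other neural genes differed between the CMTR1 siRNAs in edgeR's test over all genes. Lower with siRNA 2 than with siRNA 1 were Sox21 (−0.80), Zfp521 (−0.78), En1 (−0.71), Msi1 (−0.26) and Sox4 (−0.21). Higher were Neurod4 (1.40), Syp (0.67), Ebf2 (0.58), Nefl (0.50), Insm1 (0.39) and Nefh (0.34). Outside the neural lists, Tfap2c (−0.40) and Esrrb (−0.21) were lower, and Krt8 (0.38) and Cdh1 (0.13) higher. Calls of Msi1, Syp, Ebf2, Insm1, Esrrb, Krt8 and Cdh1 were lost when single libraries were left out. For Cdh1 this was so without any one of siRNA 1 replicates 1 to 4 or siRNA 2 replicates 2 to 4, with values from 0.10 to 0.13, and without control replicate 2 (0.13), and it was not called by DESeq2 or under TMM factors (0.12 each).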

How the results depend on the processing

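No called value changed its sign, while the values of Sox1 and Sox3 with siRNA 2, both near 0, did when single libraries were left out. All 126 log2 values of the 6 markers under other settings lay within 1 SE of the values reported, as did 128 of the 132 with a library of the groups compared left out. The other 4 were Pax6 without control replicate 2, 0.53 with siRNA 1 and −0.16 with siRNA 2, and Sox1 without siRNA 2 replicate 4, 0.13 against control and −0.12 against siRNA 1. For the other named genes, 880 values under other settings were on the same side of the threshold, 21 passed it anew and 16 no longer did. With a library of the groups compared left out these were 887, 22 and 59. The 3 genes most like each marker are not in these counts. Leaving out a library of the group outside the comparison gave 4 more calls, 3 of Zeb2 and 1 of Sox12, and lost 3, 1 of Cdh1 and 2 of Dnmt3b.

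With DESeq2, genes called fell from 1562 to 958 with siRNA 2 and from 1196 to 740 between the CMTR1 siRNAs. Neural genes called were 7 and 10 in these comparisons, in place of 12 and 17, with 1 proneural factor and 2 neuronal genes higher between the CMTR1 siRNAs in place of 3 and 4. The cause was not tested.

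With each library of the 2 groups compared left out in turn, genes called ran from 355 to 850 with siRNA 1, 807 to 1667 with siRNA 2 and 724 to 1374 between the CMTR1 siRNAs. Neural genes called ran from 7 to 11, 7 to 14 and 12 to 19. Between the CMTR1 siRNAs, progenitor genes called lower ran from 5 to 10, proneural factors called higher from 1 to 3 and neuronal genes called higher from 3 to 5. Stem cell markers called lower ran from 6 to 9 with siRNA 1 and 7 to 8 with siRNA 2. Fewer libraries are fitted each time, and the cause beyond that was not tested.

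Residuals of libraries with the same replicate number had a mean r of 0.0102 over 10 pairs (−0.0645 to 0.0696), beside −0.0034 over 30 others (−0.0843 to 0.0846). Each r weighs all genes tested alike, so a pattern held by some genes only may not show in it. Sox1 fell from replicate 1 to replicate 4 in both CMTR1 siRNA groups. It was not alone: in both groups Dll1 and Sox11 were higher in replicates 1 and 2 than in 3 and 4, and Nanog and Tfcp2l1 were lower. Nefh did not split so, and how many genes did was not counted. With replicate number as a block, the log2 fold change of Sox1 was 0.34 with siRNA 1 and 0.11 with siRNA 2, in place of 0.25 and 0.03. With the replicate block, neural genes called were 12, 12 and 21, and genes called 840, 1486 and 1242.

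Several limits hold. Camk2a, En1, Neurod4, Ebf2, Ebf3, Eomes and Syp rest on few reads, at most 58 in any library. With 3 or 4 libraries a group, a missed call does not show that levels were equal. Whether the replicates were separate cultures is not in the labels, and the notes do not say which strand setting was used in counting. Scaling by totals compares shares of RNA, so a change of all RNA in a cell is not seen. Cmtr1 RNA did not separate the groups, and protein was not measured here.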
